A study of Mus musculus with 40 samples.

Results

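The subject of this report was a set of 10 mouse genes that write, bind or maintain histone H3 lysine 9 (H3K9) methylation, the mark of heterochromatin. They were listed by name for their known roles and looked up by symbol among 56748 genes in the deposited RNA-seq counts. The 10 genes were Ehmt1, Ehmt2, Suv39h1, Suv39h2, Setdb1, Trim28, Cbx1, Cbx3, Cbx5 and Atrx, and all 10 were among the 23399 genes with enough reads to test. The question was whether their RNA levels differed when the nuclear lamina was lost. Libraries of total RNA depleted of ribosomal RNA came from mouse embryonic stem cells (mES cells, naive pluripotency) and from epiblast-like cells (EpiLCs, primed pluripotency) made from them. The mES cells were kept without serum or feeders in 2i + LIF medium with 3 µM CHIR-99021 and 1 µM PD0325901. EpiLCs were made from mES cells in N2B27 medium that held Activin A (12 ng/mL) and FGF (20 ng/mL) instead. Both were harvested after 48 h. The 4 genotypes were wildtype (WT), LBRKO (frameshift mutations in Lbr, which encodes the lamin B receptor of the inner nuclear membrane), TKO (triple knockout of the lamin genes Lmna, Lmnb1 and Lmnb2) and QKO (the TKO line with Lbr disrupted as well). Each WT group had 8 libraries and each mutant group had 4, for 40 libraries in 8 groups.

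Several features limit these groups as models. The QKO cells were 1 clone, derived from the TKO line. The study made several LBRKO clones, and the labels do not say which of them gave these libraries. TKO and WT were lines from littermates. According to the methods, part of the WT population carried an additional chromosome 6 and chromosome 8, and the TKO population carried an additional chromosome 8. Per the methods each replicate came from its own culture well, so p-values measured the spread between wells of a line and not the spread between lines. In bulk RNA, fewer cells expressing a gene and less RNA per cell cannot be told apart.

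H3K9 methylation is laid down in steps by different enzymes. GLP (Ehmt1) and G9a (Ehmt2) work as a pair and give mono- and dimethylation, the form that coats chromatin at the nuclear periphery. SUV39H1 and SUV39H2 trimethylate the pericentromeric repeats, and SETDB1, brought to retrotransposons by the corepressor TRIM28 (KAP1), trimethylates those elements. The heterochromatin protein 1 (HP1) family, encoded by Cbx5 (HP1α), Cbx1 (HP1β) and Cbx3 (HP1γ), binds the methylated lysine through a chromodomain, and LBR itself binds HP1. ATRX reads H3K9me3 and, with DAXX, deposits histone H3.3 in silent repeats.

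The targeted genes and stage markers were checked first. Lmnb1 was at 481 to 546 CPM (counts-per-million, scaled by TMM) in the WT and 8.26 to 15.5 CPM in the TKO and QKO mES libraries, and at 499 to 547 CPM against 0.535 to 2.09 CPM in EpiLCs. Lmnb2 was at 89.8 to 116 CPM in WT libraries and 1.02 to 4.71 CPM in TKO and QKO libraries. Lmna, low in WT EpiLCs (9.28 to 13.0 CPM), was at 45.1 to 71.5 CPM in WT and 14.1 to 21.0 CPM in TKO and QKO mES cells. In TKO and in QKO EpiLCs, 2 of the 4 targeted genes, Lmnb1 and Lmnb2, were more than 2-fold lower than WT. Lmna RNA was thus a weaker check of the labels at that stage. Lbr RNA remained at 145 to 274 CPM in LBRKO and 236 to 239 CPM in QKO mES cells, against 347 to 407 CPM in WT, and the LBRKO range (196 to 403 CPM) overlapped WT (364 to 513 CPM) in EpiLCs, so Lbr RNA checked the labels only in part. The summed level of 6 naive markers was 3430 to 4855 CPM in mES libraries and 104 to 295 CPM in EpiLCs, and that of 4 primed markers was 130 to 211 CPM and 2205 to 3840 CPM, so each library carried the markers of its labelled stage. Summed markers of other cell types were at or below 22.9 CPM in every library, yet some separated the groups without overlap. The 3 trophectoderm markers summed to 20.7 to 22.9 CPM in QKO and 7.25 to 9.70 CPM in WT EpiLCs. The 5 primitive endoderm markers summed to 16.9 to 19.6 CPM in LBRKO mES cells and 7.22 to 8.75 CPM in WT. The 3 2-cell-like markers summed to 5.03 to 7.49 CPM in WT EpiLCs and 0.332 to 1.82 CPM in the mutants, and the 3 fibroblast markers to 9.81 to 12.0 CPM in WT EpiLCs and 6.31 to 8.43 CPM in LBRKO and QKO. Their part in the results was not tested. Library depth split in a way the labels do not explain. WT replicates 1 to 4 and all TKO and QKO libraries held 22.6M to 33.6M counts, whereas WT replicates 5 to 8 and all LBRKO libraries held 39.4M to 48.9M. Each comparison was therefore also made with the WT replicates of like depth alone.

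No member differed from WT by more than 2-fold in any of the 6 comparisons of a mutant with WT. Of all tested genes, the shares past 2-fold were 6.31% in LBRKO, 6.45% in TKO and 17.2% in QKO mES cells and 5.67%, 2.91% and 21.2% in the corresponding EpiLCs. Smaller differences that passed the test (adjusted p under 0.05, edgeR quasi-likelihood test) were most frequent in QKO cells. In LBRKO mES cells 1 of 10 members passed (24.0% of all tested genes passed) and it was higher (12.7%). In TKO mES cells 2 passed (21.3%), 1 higher (8.09%) and 1 lower (13.2%), and in QKO mES cells 8 passed (44.5%), 4 higher (21.0%) and 4 lower (23.5%). In LBRKO EpiLCs 5 passed (25.2%), 1 higher (11.0%) and 4 lower (14.2%). In TKO EpiLCs 1 passed (14.7%) and it was higher (4.63%), and in QKO EpiLCs 6 passed (54.8%), 1 higher (24.3%) and 5 lower (30.5%). In TKO mES cells, TKO EpiLCs and QKO EpiLCs the share of members was within the change of 1 gene of the share of all genes. The median log2 fold change of the members was 0.01 (LBRKO mES), 0.05 (TKO mES), 0.02 (QKO mES), -0.13 (LBRKO EpiLC), 0.02 (TKO EpiLC) and -0.18 (QKO EpiLC), against medians over all tested genes from -0.04 to 0.02. These comparisons share their WT libraries within a stage and are not independent of each other.

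**Figure D1:**
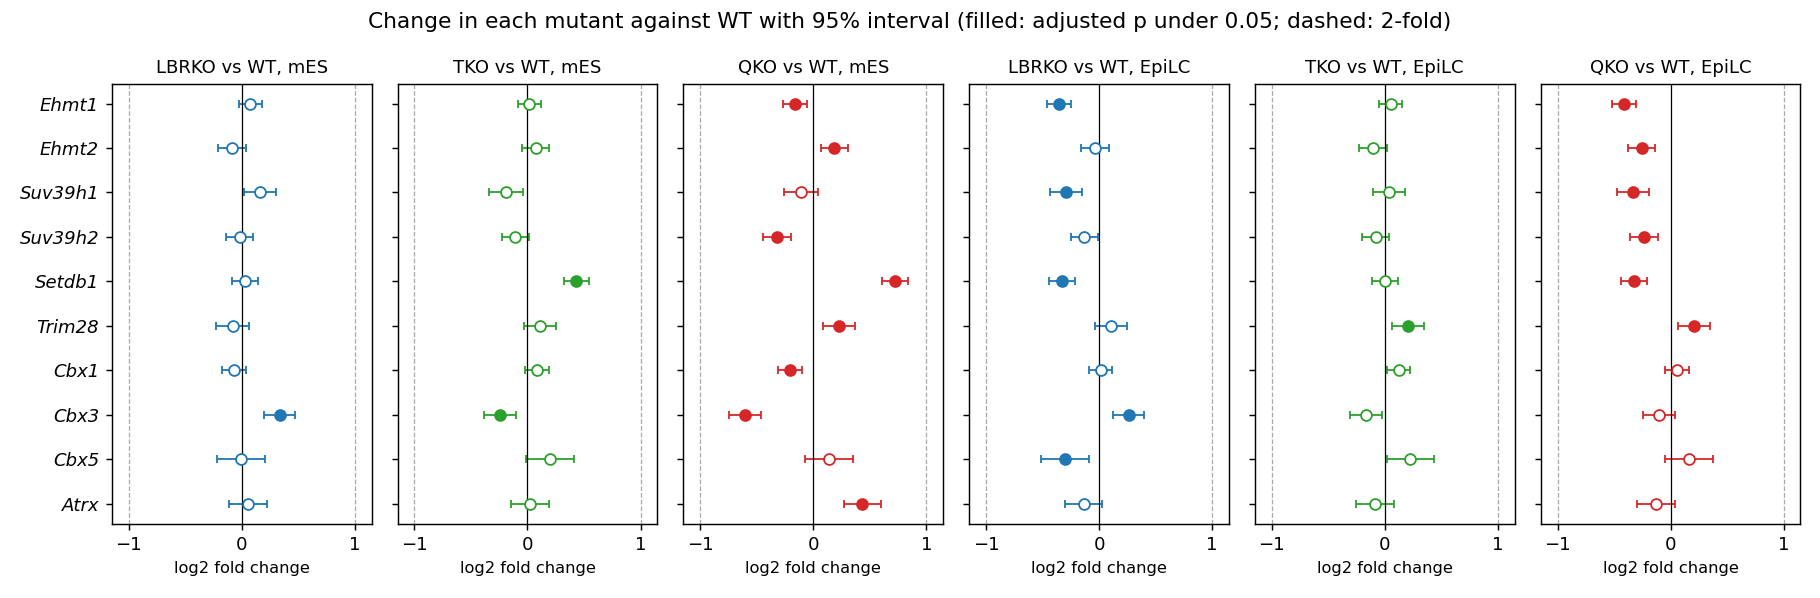
Log2 fold change of each of the 10 genes (rows) in LBRKO, TKO and QKO cells against WT, in mES cells (left 3 panels) and EpiLCs (right 3 panels), with 95% intervals. Filled points passed the test at an adjusted p under 0.05 and dashed lines mark 2-fold. All points lie inside the dashed lines, and Setdb1 (0.72) and Cbx3 (-0.60) in QKO mES cells lie furthest from 0.

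The passage from the naive to the primed stage in WT cells came with a median log2 difference of 0.22 over the members, against 0.07 over all tested genes. In WT EpiLCs against WT mES cells, 6 of 10 members passed the test (64.3% of all tested genes passed). Ehmt1, Suv39h1, Suv39h2, Setdb1 and Cbx1 rose (5 members, 35.8% of all tested genes) and Trim28 fell (28.6%), and only Suv39h1 passed 2-fold (31.1% of all tested genes did). Setdb1, Suv39h1 and Ehmt1 then had in common that each was lower than WT in both LBRKO and QKO EpiLCs. For that reason the 250 bases before the outermost annotated start of these 3 genes are printed here, 5′ to 3′ on the strand of the gene, read from the GRCm39 genome. Capitals mark matches to 4 promoter motifs, searched on either strand, and no matches overlapped. The GC box was searched as GGGCGG. The second motif, the box bound by the factor NF-Y, was searched as CCAAT. The core bound by ETS factors was searched as CCGGAAG. The E box was searched as CACGTG. The windows were chr3:95264542-95264791 (Setdb1), chr2:24809697-24809946 (Ehmt1) and chrX:7941000-7941249 (Suv39h1), all 3 on the minus strand.
Setdb1: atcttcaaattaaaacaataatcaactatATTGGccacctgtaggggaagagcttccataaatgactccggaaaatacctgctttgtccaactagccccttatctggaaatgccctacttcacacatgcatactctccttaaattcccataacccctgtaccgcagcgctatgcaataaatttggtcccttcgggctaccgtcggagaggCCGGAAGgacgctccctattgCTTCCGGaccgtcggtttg
Ehmt1: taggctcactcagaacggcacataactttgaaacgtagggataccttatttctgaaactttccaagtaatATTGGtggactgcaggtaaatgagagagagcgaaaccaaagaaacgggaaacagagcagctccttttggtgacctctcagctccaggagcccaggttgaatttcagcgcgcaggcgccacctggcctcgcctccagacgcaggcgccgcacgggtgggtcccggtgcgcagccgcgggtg
Suv39h1: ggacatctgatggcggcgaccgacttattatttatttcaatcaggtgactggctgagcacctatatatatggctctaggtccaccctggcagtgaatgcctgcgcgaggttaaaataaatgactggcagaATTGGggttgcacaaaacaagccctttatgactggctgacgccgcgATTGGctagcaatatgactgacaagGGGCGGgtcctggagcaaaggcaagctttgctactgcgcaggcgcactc

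All 3 windows held a CCAAT box, which 36.1% of 21753 protein-coding promoters of this length held. It did not set these 3 apart, since 7 of the 10 members held one, including Trim28, Cbx3, Cbx5 and Atrx. Each window lies before the outermost annotated start, and which start the cells used was not tested. The Trim28 window held 1 CpG dinucleotide, and 8.03% of promoters held fewer. Setdb1 held 2 ETS cores, beginning 40 and 19 bases before the start, a motif found in 5.75% of promoters. The Suv39h1 window held a GC box 49 bases before the start (29.9% of promoters) and CCAAT boxes at 120 and 74 bases. No E box (5.69% of promoters) lay in these 3 windows. The windows held 11, 16 and 11 CpG dinucleotides for Setdb1, Ehmt1 and Suv39h1, against a median of 6. No motif here, nor any absence of one, was tested for a part in the RNA levels.

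Ehmt1 (chromosome 2, 24679940 to 24809626, GRCm39), the GLP subunit of the H3K9me1/2 writer, rose with the stage and was lower in EpiLCs without LBR. WT mES cells held 88.2 to 99.8 CPM (median 92.1, n = 8) and WT EpiLCs 137 to 167 CPM (median 156, n = 8). The ranges did not meet, and the log2 difference was 0.73 (SE 0.04, edgeR adjusted p = 2.22e-19). In LBRKO EpiLCs the 4 libraries held 118, 132, 121 and 113 CPM, and in QKO EpiLCs 117, 116, 117 and 116 CPM. TKO EpiLCs held 156, 160.5, 167 and 158 CPM. All LBRKO and QKO libraries lay below the lowest WT library, whereas the TKO libraries lay inside the WT range. The log2 fold changes against WT were -0.36 in LBRKO (SE 0.05, edgeR adjusted p = 6.62e-07) and -0.41 in QKO (SE 0.05, edgeR adjusted p = 7.60e-09), and QKO was lower than TKO by -0.46 (SE 0.06, edgeR adjusted p = 2.08e-08). In TKO EpiLCs it was 0.05, with a 95% interval of -0.05 to 0.15.

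In mES cells Ehmt1 stood near its WT level in all mutants. LBRKO held 103, 101, 98.5 and 90.2 CPM, TKO 95.3, 92.7, 95.7 and 93.9 CPM and QKO 87.6, 75.9, 86.0 and 84.7 CPM. Only the QKO libraries lay below all WT libraries (log2 fold change -0.16, SE 0.05, edgeR adjusted p = 0.00976). Without QKO mES replicate 2, the lowest, that difference was -0.11 and no longer passed (edgeR adjusted p = 0.108).

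Ehmt2 (chromosome 17, 35117445 to 35133028), the G9a subunit, did not follow its partner. WT libraries ranged from 164 to 191 CPM in mES cells (median 177) and from 151 to 179 CPM in EpiLCs (median 167), with a log2 difference of -0.09 that did not pass (95% interval -0.19 to 0.01). QKO mES cells held 195, 214, 202 and 195 CPM, just above the highest WT library, and QKO EpiLCs 121, 135, 156 and 145 CPM, of which 1 library fell inside the WT range. The log2 fold change was 0.19 in mES cells (SE 0.06, edgeR adjusted p = 0.00993) and -0.26 in EpiLCs (SE 0.06, edgeR adjusted p = 4.34e-04), and these 2 effects differed from each other by -0.44 (SE 0.09, edgeR adjusted p = 6.26e-05). Both are small and each rests on the processing. Without QKO mES replicate 2 the first was 0.16 (edgeR adjusted p = 0.0553). Over 21 alternatives it ran from 0.10 to 0.23 and failed in 2. With libraries scaled to their totals alone the second was -0.10 (edgeR adjusted p = 0.141). LBRKO libraries ranged from 156 to 177 CPM in mES cells and from 143 to 182 CPM in EpiLCs, and TKO libraries from 177 to 192 CPM and from 150.4 to 163 CPM, with no difference from WT that passed.

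Suv39h1 (chromosome X, 7927410 to 7940999), an H3K9me3 writer of pericentromeric chromatin, had the lowest level of the set and the largest rise with the stage. WT mES libraries held 13.4 to 17.7 CPM (median 15.2) and WT EpiLC libraries 35.7 to 44.4 CPM (median 39.3), a 2.60-fold difference (log2 1.38, SE 0.06, edgeR adjusted p = 1.23e-23). In every genotype, all EpiLC libraries lay above all mES libraries. In EpiLCs, LBRKO held 31.1, 30.8, 35.2 and 33.2 CPM and QKO 29.4, 30.3, 34.6 and 32.5 CPM, all below the WT range. TKO held 38.1, 40.9, 42.9 and 41.9 CPM, inside it. The log2 fold changes were -0.29 in LBRKO (SE 0.07, edgeR adjusted p = 0.00149) and -0.33 in QKO (SE 0.07, edgeR adjusted p = 1.30e-04), and 0.04 in TKO (95% interval -0.10 to 0.18). In mES cells the mutant libraries held 12.8 to 19.4 CPM and none of the 3 mutants passed, with LBRKO at 0.16 (edgeR adjusted p = 0.0997) and TKO at -0.19 (edgeR adjusted p = 0.0595).

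The level of Suv39h1 carries a specific uncertainty. The whole gene lies within Gm14820, a long noncoding RNA gene on the opposite strand that overlaps it over 13590 bases, and the strand setting used in counting is not given in the sources used here. Gm14820 fell from 10.5 CPM ± 2.54 (SD, n = 8) in WT mES cells to 0.785 CPM ± 0.325 (n = 8) in WT EpiLCs, and it was at 2.81 CPM ± 0.161 (n = 4) in LBRKO and 3.25 CPM ± 0.180 (n = 4) in QKO EpiLCs. Gm14820 therefore moved opposite to Suv39h1 in the same groups. Its part in the Suv39h1 values was not tested. In the second deposited table, which also counts reads that align to several places, the stage difference of Suv39h1 was 0.93 on the log2 scale and no longer past 2-fold, and its differences in LBRKO and QKO EpiLCs were -0.27 and -0.26 and still passed.

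Suv39h2 (chromosome 2, 3456852 to 3476068), the paralog of Suv39h1, rose less with the stage and was lower in QKO cells at both stages. WT mES libraries ranged from 32.3 to 41.9 CPM (median 36.8) and WT EpiLC libraries from 46.1 to 51.0 CPM (median 49.1), a log2 difference of 0.38 (SE 0.05, edgeR adjusted p = 3.87e-09). QKO mES cells held 33.0, 31.0, 26.5 and 29.5 CPM, of which 1 library reached the WT range, and QKO EpiLCs 41.6, 40.04, 40.6 and 43.7 CPM, all below WT. The log2 fold changes were -0.32 (SE 0.06, edgeR adjusted p = 3.87e-05) and -0.24 (SE 0.06, edgeR adjusted p = 9.48e-04). The second was -0.08 and did not pass with libraries scaled to their totals alone. LBRKO and TKO libraries, at 31.4 to 38.4 CPM in mES cells and 42.2 to 48.4 CPM in EpiLCs, gave no difference from WT that passed. Suv39h2 shares 8316 bases with Dclre1c on the opposite strand, which did not pass in QKO at either stage (log2 0.23 and -0.15).

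Setdb1 (chromosome 3, 95230836 to 95264513), the H3K9me3 writer of retrotransposons, gave the widest mutant effect of the set and its direction turned with the stage. WT mES libraries held 143 to 177 CPM (median 161, n = 8). LBRKO held 170.5, 154, 172 and 157 CPM, inside the WT range. TKO held 213, 225, 216 and 212 CPM and QKO 256, 275, 273 and 257 CPM. The TKO libraries all lay above WT and the QKO libraries all lay above TKO. On the log2 scale TKO exceeded WT by 0.43 (SE 0.06, edgeR adjusted p = 9.32e-08), QKO exceeded WT by 0.72 (1.65-fold, SE 0.06, edgeR adjusted p = 3.18e-14) and QKO exceeded TKO by 0.29 (SE 0.07, edgeR adjusted p = 0.00101). LBRKO differed from WT by 0.03 (95% interval -0.09 to 0.14).

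In EpiLCs Setdb1 was lower than WT in QKO and LBRKO and near WT in TKO. WT libraries held 183 to 220 CPM (median 194, n = 8), a rise from mES cells of 0.29 (SE 0.05, edgeR adjusted p = 5.68e-07). LBRKO held 159, 171, 150.5 and 147 CPM and QKO 144, 162, 160 and 162 CPM, all below the lowest WT library. TKO held 184, 194, 207 and 204 CPM, inside the WT range. The log2 fold changes were -0.33 in LBRKO (SE 0.06, edgeR adjusted p = 2.57e-05), -0.32 in QKO (SE 0.06, edgeR adjusted p = 8.09e-06) and 0.01 in TKO (95% interval -0.11 to 0.12).

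The WT libraries of the 2 depth classes differed in Setdb1, at 148 CPM ± 4.22 (SD, n = 4) in replicates 1 to 4 and 172 CPM ± 3.92 (n = 4) in replicates 5 to 8 of the mES cells, without overlap. Against WT replicates of like depth the mES differences were 0.55 in TKO, 0.84 in QKO and -0.08 in LBRKO, and the EpiLC differences were 0.05, -0.28 and -0.37. The calls were as with all WT libraries. Setdb1 overlaps Cers2 on the opposite strand by 75 bases. Cers2 differed from WT by 0.10 in TKO and 0.14 in QKO mES cells, neither of which passed. It rose with the stage (0.55) and was lower in LBRKO (-0.24) and QKO EpiLCs (-0.69), all of which passed, as did its stage differences in TKO (-0.26) and QKO (-0.83). Cers2 thus moved in the same direction as Setdb1 in those comparisons, and its part in the Setdb1 values was not tested.

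Trim28 (chromosome 7, 12733041 to 12764962), the corepressor that recruits SETDB1, was the most highly expressed member and had the narrowest range of group means (0.40 on the log2 CPM scale). WT mES libraries held 1620.3 to 2056 CPM (median 1771) and WT EpiLC libraries 1433 to 1780.4 CPM (median 1651), overlapping ranges with a log2 difference of -0.17 (SE 0.06, edgeR adjusted p = 0.00896). QKO mES cells held 2040.1, 2350.2, 2091 and 2052 CPM, of which only the last and first met the WT range. QKO EpiLCs held 1574, 1837, 2103 and 1959.7 CPM and TKO EpiLCs 1878, 1805, 1944 and 1863 CPM. The log2 fold changes were 0.23, 0.21 and 0.21 (SE 0.07 each, edgeR adjusted p = 0.00751, 0.0118 and 0.0368). None of these 3 passed with WT replicates 5 to 8 alone, which gave 0.14, 0.16 and 0.16, whereas WT replicates 1 to 4 alone, of like depth, gave 0.31, 0.25 and 0.26. Trim28 overlaps Zbtb45 on the opposite strand over 6137 bases. Zbtb45 fell by 1.42 on the log2 scale from WT mES cells to WT EpiLCs. It was higher than WT in QKO EpiLCs (0.50), as Trim28 was, and in LBRKO EpiLCs (0.57), where Trim28 did not pass. In QKO mES cells (-0.03) and TKO EpiLCs (0.13) Zbtb45 did not pass. Its part in the Trim28 values was not tested.

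Cbx1 (chromosome 11, 96679953 to 96699466), which encodes HP1β, was the HP1 gene that rose with the stage. WT mES libraries held 184 to 205 CPM (median 199) and WT EpiLC libraries 305 to 371 CPM (median 343), a 1.73-fold difference (log2 0.79, SE 0.04, edgeR adjusted p = 2.03e-20). QKO mES cells held 181, 167, 166 and 169 CPM, all below WT (log2 -0.21, SE 0.05, edgeR adjusted p = 0.00123) and below TKO, which held 218, 210.5, 209 and 199 CPM. In EpiLCs no mutant passed. LBRKO libraries held 298 to 370.2 CPM, TKO 359 to 383 CPM and QKO 338 to 378 CPM, ranges that each overlapped WT, so the rise with the stage was larger in QKO than in WT by 0.26 (SE 0.07, edgeR adjusted p = 0.00455).

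Cbx3 (chromosome 6, 51447340 to 51460684), which encodes HP1γ, was higher in LBRKO and lower in TKO and QKO mES cells. WT mES libraries held 174 to 213 CPM (median 180.5, n = 8). LBRKO held 221, 227, 239 and 255 CPM, all above WT, whereas TKO held 164, 156, 161 and 149.5 CPM and QKO 126, 131, 113 and 121 CPM, all below. The log2 fold changes were 0.34 in LBRKO (SE 0.07, edgeR adjusted p = 1.75e-04), -0.24 in TKO (SE 0.07, edgeR adjusted p = 0.00975) and -0.60 in QKO (SE 0.07, edgeR adjusted p = 3.00e-09). QKO also lay below TKO by -0.36 (SE 0.08, edgeR adjusted p = 7.89e-04). The TKO difference no longer passed without TKO mES replicate 4, the lowest (-0.21, edgeR adjusted p = 0.0523).

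In EpiLCs the WT libraries held 167 to 225 CPM of Cbx3 (median 182), with a stage difference of 0.00 (95% interval -0.11 to 0.12). LBRKO held 208, 214, 210.1 and 263 CPM, TKO 184, 157, 166 and 158 CPM and QKO 193, 171, 161 and 169 CPM. The groups overlapped WT, and only LBRKO passed (log2 0.26, SE 0.07, edgeR adjusted p = 0.00316). Without LBRKO EpiLC replicate 4, the highest, its difference was 0.18 and did not pass (edgeR adjusted p = 0.0543), nor did it pass against WT replicates 5 to 8 alone (0.19, edgeR adjusted p = 0.0891). The QKO difference of mES cells was smaller in EpiLCs, where it was -0.10 (95% interval -0.24 to 0.04), and the test of this change gave 0.50 (SE 0.10, edgeR adjusted p = 8.79e-05).

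Other genes of chromosome 6 moved with Cbx3 in LBRKO cells. The median log2 fold change of the 1160 tested chromosome 6 genes was 0.38 in LBRKO mES cells and 0.37 in LBRKO EpiLCs, so Cbx3 lay 0.04 and 0.10 below it. In TKO the median was -0.16 in mES cells and -0.15 in EpiLCs, and Cbx3 lay 0.08 and 0.02 below it. In QKO mES cells, however, the median was -0.10 and Cbx3 lay 0.50 below it, and between QKO and TKO mES cells the median was 0.02 and Cbx3 lay 0.38 below it. The part of the chromosome-wide shift in the Cbx3 values was not tested. Hnrnpa2b1 starts 967 bases past the annotated start of Cbx3, on the opposite strand, in the later GENCODE release. It did not pass in any mutant comparison with WT (log2 -0.13 to 0.13). All 8 annotated Cbx3 pseudogenes held 88 counts or fewer in every library, against at least 2876 for Cbx3.

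**Figure D2:**
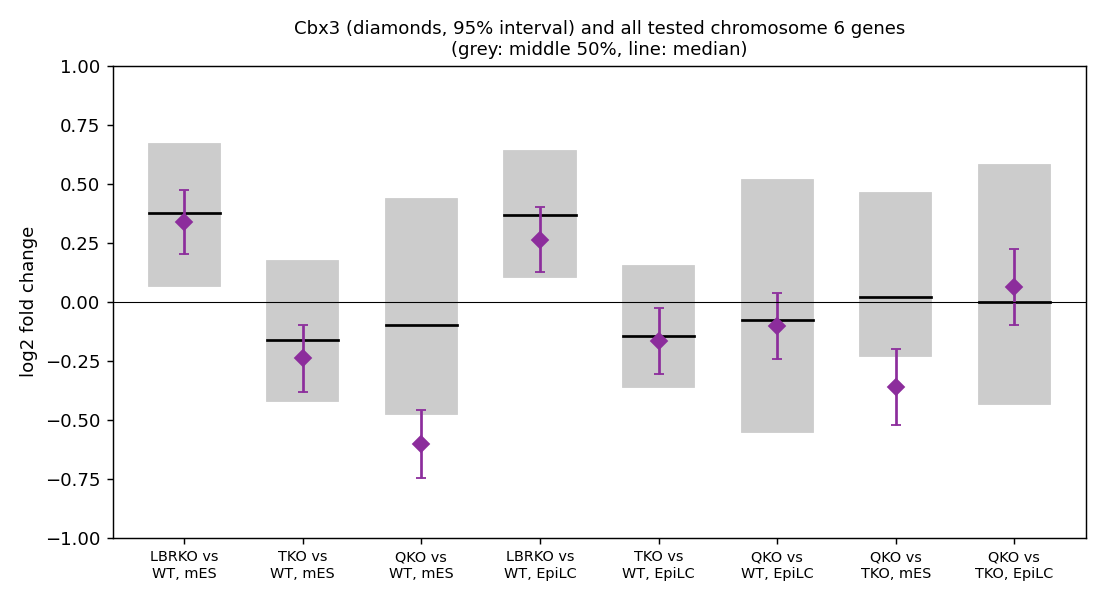
Log2 fold change of Cbx3 (diamonds, 95% interval) beside that of the 1160 tested genes of chromosome 6 (grey boxes, middle 50%; black lines, median) in 8 comparisons on the horizontal axis. Cbx3 lies near the chromosome median in both LBRKO and both TKO comparisons and below the grey box in QKO mES cells against WT and against TKO.

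Cbx5 (chromosome 15, 103099971 to 103148243), which encodes HP1α, was the most variable HP1 gene between libraries. WT libraries held 606 to 854 CPM in mES cells (median 726) and 506 to 844 CPM in EpiLCs (median 761), with a stage difference of 0.01 (95% interval -0.16 to 0.19). LBRKO EpiLCs held 557, 600.2, 774 and 438 CPM, spread over a range as wide as that of WT. Their log2 difference of -0.30 (SE 0.11, edgeR adjusted p = 0.0323) was the only one that passed for this gene. It did not pass against WT replicates 5 to 8 alone (-0.20, edgeR adjusted p = 0.253) or without LBRKO EpiLC replicate 4 (-0.18, edgeR adjusted p = 0.263), and was lost in 11 of 21 alternatives in all. Hnrnpa1, which starts 394 bases upstream of Cbx5 on the opposite strand, was also lower than WT in LBRKO EpiLCs (-0.23, edgeR adjusted p = 0.00195). It was lower in LBRKO (-0.25) and QKO mES cells (-0.17) too, where Cbx5 did not pass. The part of Hnrnpa1 in the Cbx5 values was not tested. TKO held 785 to 858 CPM in mES cells and 765 to 896 CPM in EpiLCs, and QKO 753 to 838 CPM and 777 to 849.9 CPM.

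Atrx (chromosome X, 104841221 to 104973009), the chromatin remodeller, was higher in QKO mES cells alone among the mutants compared with WT. WT mES libraries held 171 to 264 CPM (median 218). QKO held 305, 268, 298 and 284 CPM, all above WT, while LBRKO held 214, 199.5, 236 and 238 CPM and TKO 217, 211, 222 and 217 CPM, all inside the WT range. The log2 fold change in QKO was 0.43 against WT (SE 0.08, edgeR adjusted p = 2.52e-05) and 0.41 against TKO (SE 0.10, edgeR adjusted p = 0.00123). WT replicates 1 to 4 (191 CPM ± 23.2, SD, n = 4) and 5 to 8 (237 CPM ± 22.7, n = 4) differed here as well, and against the first alone the QKO value was 0.60. Over 21 alternatives the QKO value against WT ran from 0.29 to 0.60 and failed in 0. In EpiLCs, WT held 211 to 270.01 CPM, a stage difference of 0.15 (95% interval 0.01 to 0.28) that just missed the threshold, and no mutant passed, with QKO at -0.13 (95% interval -0.29 to 0.04). LBRKO EpiLCs passed against WT replicates 5 to 8 alone (-0.22, edgeR adjusted p = 0.0313).

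**Figure D3:**
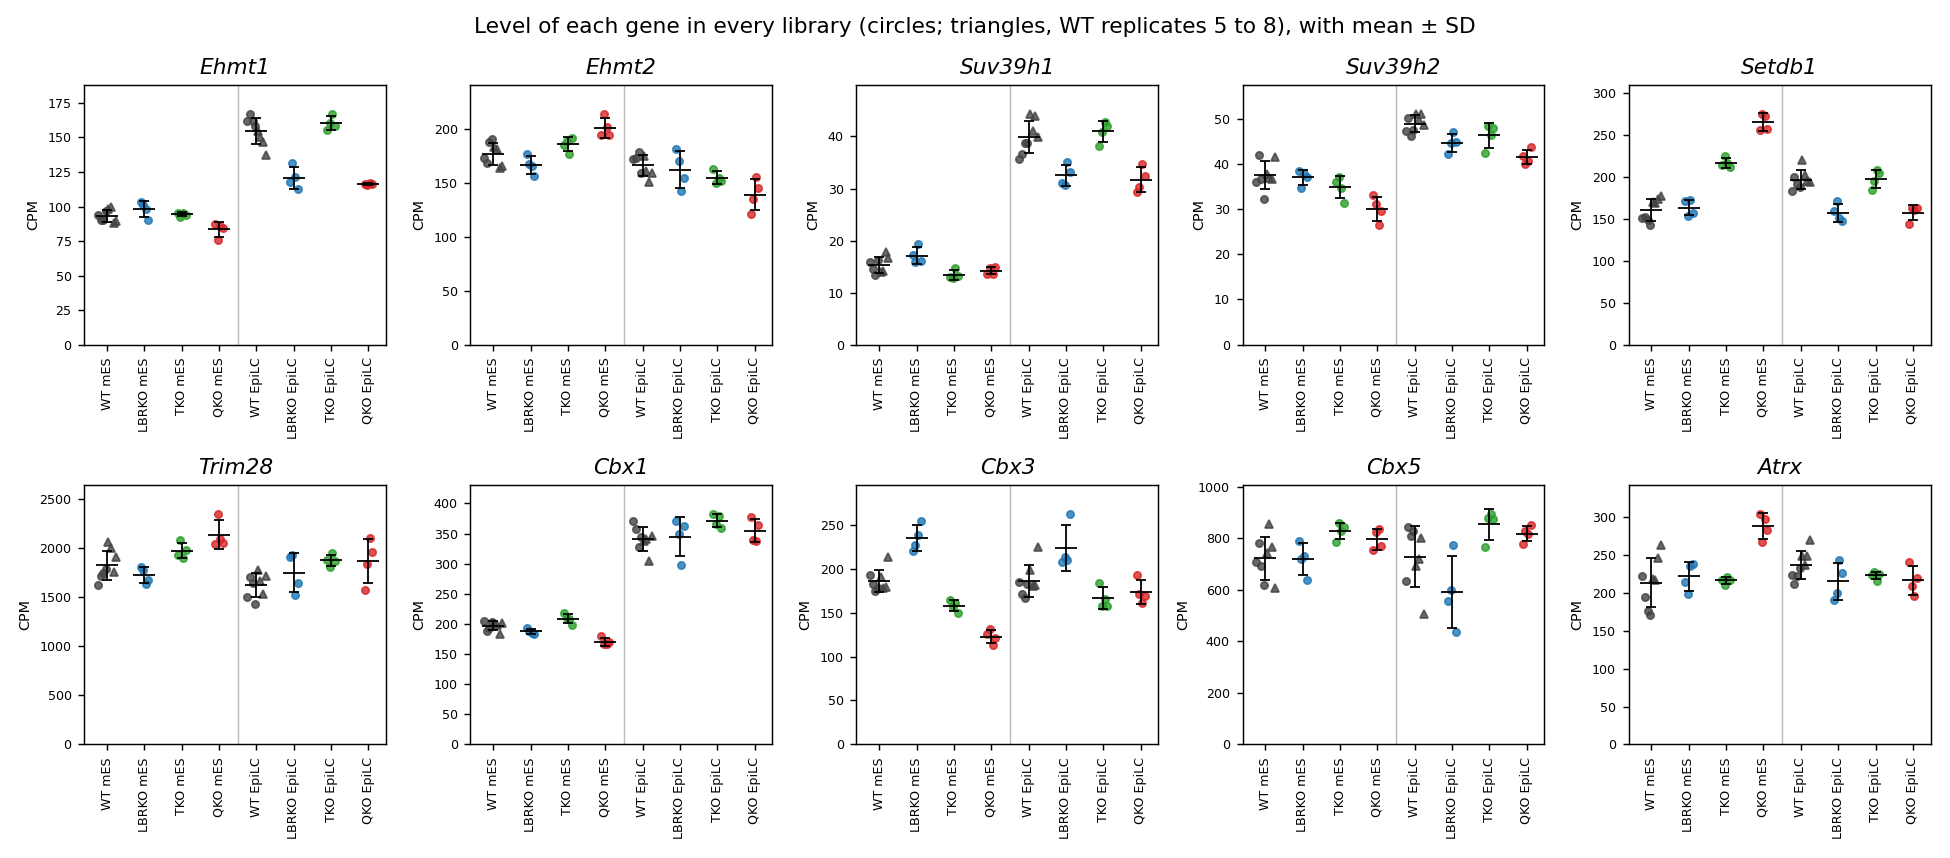
CPM of the 10 genes (1 panel each, vertical axes from 0) in all 40 libraries, by group on the horizontal axis, with mean and SD. Circles are libraries and triangles are WT replicates 5 to 8. Setdb1 climbs from WT through TKO to QKO in mES cells (161 to 265 CPM by WT median and QKO median), and Ehmt1, Suv39h1 and Setdb1 sit lower in LBRKO and QKO than in WT and TKO among EpiLCs.

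The difference between stages was then compared among genotypes, as the effect of a mutation in EpiLCs minus its effect in mES cells. For LBRKO, 3 of 10 members passed (15.5% of all tested genes passed). These were Suv39h1 (-0.45, SE 0.10, edgeR adjusted p = 9.43e-04), Ehmt1 (-0.43, SE 0.07, edgeR adjusted p = 1.71e-05) and Setdb1 (-0.35, SE 0.08, edgeR adjusted p = 0.00145). For TKO, Setdb1 alone passed (-0.43, SE 0.08, edgeR adjusted p = 2.54e-04, against 8.44% of all tested genes). For QKO, 6 members passed (29.8% of all tested genes passed), with Setdb1 (-1.05, SE 0.08, edgeR adjusted p = 8.04e-14) the only one past 2-fold (12.6% of all tested genes were). The others were Atrx (-0.56), Ehmt2 (-0.44), Ehmt1 (-0.25), Cbx1 (0.26) and Cbx3 (0.50). All 3 of the LBRKO members passed with WT replicates 5 to 8 alone, and the Setdb1 term in QKO was -1.12 with WT replicates 1 to 4 alone.

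As a sum, though not marker by marker, the markers of the primed stage were lower in the same EpiLC groups. The summed CPM of the 4 primed markers was 3150 to 3840 in WT, 2523 to 2859 in LBRKO, 3068 to 3321 in TKO and 2205 to 2318 in QKO EpiLCs. Of the 4, 3 were lower than WT in LBRKO EpiLCs, 1 was lower and 1 higher in QKO, and 1 was higher in TKO. Their median log2 fold change was -0.59 in LBRKO, -0.04 in TKO and 0.19 in QKO EpiLCs. The lower sum in QKO was thus not shared by the 4 markers as a set. Of the 6 naive markers, 4 were higher and 1 (Nanog, -0.47) lower in LBRKO EpiLCs, where 11.0% and 14.2% of all tested genes were. In QKO EpiLCs 3 were higher and 1 (Nanog, -1.40) lower, against 24.3% and 30.5% of all tested genes. The summed level of 7 proliferation genes was 3431 to 4157 CPM in WT and 3667 to 4060 CPM in LBRKO EpiLCs. It was 3133 to 3532 CPM in TKO and 3168 to 3399 CPM in QKO EpiLCs. The sum thus lay inside the WT range in LBRKO, overlapped it in TKO and lay below it in QKO. Of the 7 genes, 4 were lower and 0 higher in QKO EpiLCs, and 1 was lower and 1 higher in LBRKO. In TKO 2 were lower and 0 higher, where 2347 of 23399 tested genes fell. The part of these marker and proliferation differences in the lower levels of Ehmt1, Suv39h1 and Setdb1, which themselves rise with the stage, was not tested.

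Because QKO cells were made from TKO cells, their difference includes the effect of disrupting Lbr without lamins. It can be set against the difference of LBRKO from WT, where lamins are present. QKO was 1 clone, so other differences of that clone cannot be told apart from the effect of losing LBR. The Lbr alleles also differed. Per the supplement, the QKO clone carried a frameshift and an in-frame deletion, whereas an LBRKO clone carried frameshift deletions only. The study reports no detectable LBR protein in either line. QKO against TKO gave 6 of 10 members past the test in mES cells (20.5% of all tested genes passed), of which Setdb1 and Atrx were higher (9.16%) and Ehmt1, Suv39h2, Cbx1 and Cbx3 lower (11.3%). In EpiLCs 3 passed (41.9%), all lower (23.0%), and these were Ehmt1 (-0.46), Suv39h1 (-0.37) and Setdb1 (-0.33), beside -0.36, -0.29 and -0.33 for the same 3 genes in LBRKO against WT EpiLCs. The formal test of whether LBR loss had another effect without lamins passed for 5 of 10 members in mES cells (17.6% of all tested genes passed). Cbx3 gave -0.70 (SE 0.11, edgeR adjusted p = 2.05e-06), on a chromosome whose median was -0.31. Atrx (0.36), Setdb1 (0.27), Ehmt1 (-0.25) and Cbx1 (-0.22) had edgeR adjusted p of 0.0408, 0.0270, 0.0184 and 0.0415, and of 29 alternatives they failed in 13, 3, 8 and 20. In EpiLCs 0 of 10 members passed this test in edgeR, with 0 at an unadjusted p under 0.05 and 0 in DESeq2, against 24.3% of all tested genes. There the 95% interval was -0.26 to 0.05 for Ehmt1, -0.18 to 0.17 for Setdb1 and -0.29 to 0.14 for Suv39h1, and widest for Cbx5 (-0.09 to 0.56).

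**Figure D4:**
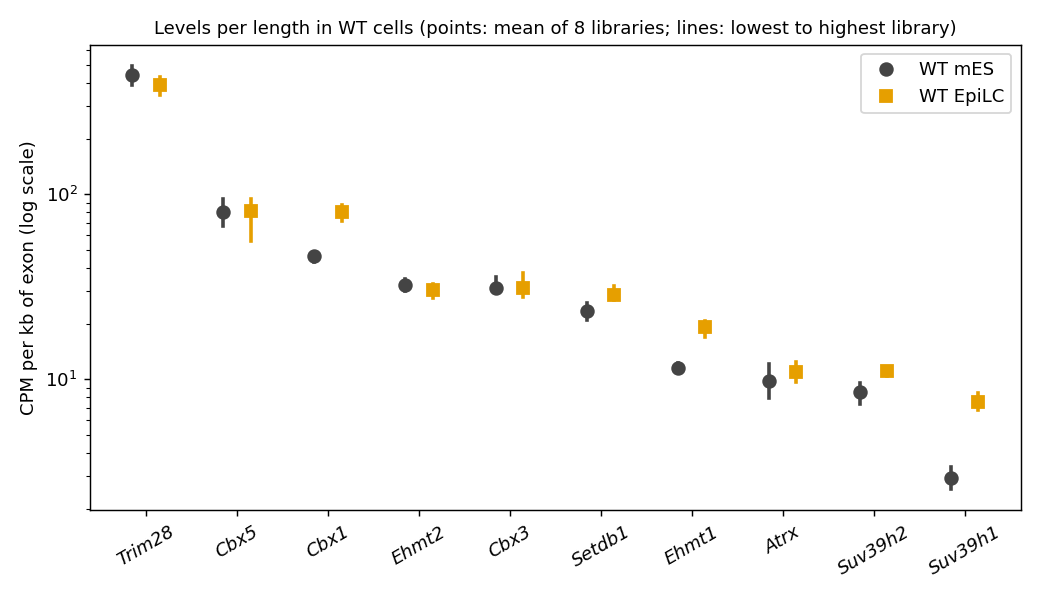
CPM per kb of exon (log scale) of the 10 genes in WT mES cells (circles) and WT EpiLCs (squares), as the mean of 8 libraries with lines from the lowest to the highest library. Trim28 is highest at both stages (439 and 389.6 CPM per kb) and Suv39h1 lowest (2.91 and 7.57 CPM per kb).

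Levels were compared between genes per length, as CPM per kb of exon. In WT mES cells the order was Trim28 (439 ± 35.8, SD, n = 8), Cbx5 (80.1 ± 9.27), Cbx1 (46.1 ± 1.80), Ehmt2 (32.2 ± 1.86), Cbx3 (31.1 ± 2.13), Setdb1 (23.4 ± 1.95), Ehmt1 (11.5 ± 0.542), Atrx (9.83 ± 1.49), Suv39h2 (8.49 ± 0.696) and Suv39h1 (2.91 ± 0.286). Ehmt2 overlapped Cbx3, and Ehmt1, Atrx and Suv39h2 overlapped their neighbours in turn. The other neighbours did not overlap in any library. In WT EpiLCs Cbx1 (79.9 ± 4.62) drew level with Cbx5 (81.0 ± 12.9), and Cbx3, Ehmt2 and Setdb1 (31.1, 30.3 and 28.7) overlapped. In QKO mES cells Setdb1 (38.7 ± 1.48, n = 4) overlapped Cbx1 (39.97 ± 1.56) and Ehmt2 (36.7 ± 1.70), and Cbx3 (20.5 ± 1.27) followed without overlap. The highest member exceeded the lowest by 151-fold in WT mES cells and 51.5-fold in WT EpiLCs.

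The 3 members with the widest range over the 8 group means were Suv39h1 (1.61 on the log2 CPM scale), Cbx1 (1.12) and Ehmt1 (0.94). Among 10261 genes with a mean of at least 5 CPM, the group means most like those of Suv39h1 were of Fat3 (Pearson r = 0.998 over 8 groups), Lrrc8c (0.996) and Ogfr (0.996). For Cbx1 they were of Phf21a (0.996), Hnrnpab (0.994) and Zfp608 (0.993), and for Ehmt1 of Got2 (0.993), Dgkd (0.991) and Usp6nl (0.991). These are descriptions of 8 means that share the stage difference.

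A wider list of 41 genes that write, erase, bind or remodel H3K9-methylated chromatin was counted for context, and 40 of them were tested. Against WT, the genes that rose and fell numbered 8 and 7 in LBRKO mES cells, 4 and 6 in TKO mES cells, 11 and 10 in QKO mES cells, 11 and 6 in LBRKO EpiLCs, 1 and 8 in TKO EpiLCs and 10 and 15 in QKO EpiLCs. Of all tested genes, 12.7% rose in LBRKO, 8.09% in TKO and 21.0% in QKO mES cells. In EpiLCs 11.0%, 4.63% and 24.3% rose. The shares that fell were 13.2% in TKO and 23.5% in QKO mES cells and 14.2% in LBRKO and 30.5% in QKO EpiLCs. In LBRKO mES cells 2622 of 23399 tested genes fell, and in TKO EpiLCs 2347. With the stage 16 rose (35.8% of all tested genes) and 13 fell (28.6%). Past 2-fold were 7 and 4 of them (31.1% in both directions together). In both directions together, 37.5% of the list passed in LBRKO mES cells (24.0% of all tested genes), 25.0% in TKO (21.3%) and 52.5% in QKO (44.5%). In EpiLCs 42.5% passed in LBRKO (25.2%), 22.5% in TKO (14.7%) and 62.5% in QKO (54.8%), and with the stage 72.5% (64.3%). The median log2 fold change of the list lay between -0.07 and 0.04 in these 7 comparisons.

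Among the partners of the writers, Wiz, which encodes a partner of GLP and G9a, was lower in all 4 comparisons of lamin-free cells with WT. It gave -0.81 in TKO and -0.85 in QKO mES cells and -0.90 and -0.82 in the corresponding EpiLCs (SE 0.07 each, edgeR adjusted p = 8.14e-12, 5.61e-13, 1.35e-12 and 1.10e-12). In LBRKO it gave -0.03 and -0.17 and did not pass. Prdm16, which fell by 2.52 with the stage in WT, fell in TKO mES cells (-0.57) and rose in QKO EpiLCs (1.25 against WT and 1.35 against TKO). Mecom, which rose by 3.47 with the stage, fell in TKO EpiLCs (-1.60) and was higher in QKO than in TKO EpiLCs (1.84). Both encode methyltransferases of the PRDM family.

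In the HUSH complex list, whose products silence H3K9me3-marked elements together with SETDB1, 4 of 6 tested genes rose with the stage and 1 fell. Of all tested genes, 35.8% rose with the stage, 28.6% fell and 31.1% passed 2-fold. Pphln1 (2.01) and Tasor2 (1.87) passed 2-fold. Both were lower in LBRKO EpiLCs (-0.71 and -0.79), and Tasor2 also in LBRKO mES cells (-0.91). Among ATRX and remodelling partners, Smarcad1 rose in LBRKO EpiLCs (0.69). Of the 10 tested demethylases, 6 fell in QKO EpiLCs and 1 rose, where 30.5% and 24.3% of all tested genes did, and Kdm4a was at -0.80 (SE 0.05, edgeR adjusted p = 5.28e-16). Kdm4a and Kdm1a were also lower in QKO than in TKO EpiLCs (-0.64 and -0.51). In mES cells, Kdm4c fell in LBRKO (-0.38) and Kdm3a was higher in QKO than in TKO (0.50). With the stage in WT, Jmjd1c (1.64), Kdm4c (1.30) and Kdm7a (1.03) rose past 2-fold, and Kdm3a (-1.21) and Kdm3b (-1.01) fell.

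Among readers and HP1 partners, Cdyl2, which encodes a chromodomain protein, was higher in all 4 comparisons of lamin-free cells with WT. It gave 1.55 in TKO and 1.71 in QKO mES cells and 1.07 and 1.88 in EpiLCs (SE 0.09, 0.09, 0.10 and 0.10, edgeR adjusted p = 4.07e-18, 4.32e-20, 1.14e-10 and 6.51e-20), was lower in LBRKO mES cells (-0.71) and fell by 2.94 with the stage in WT. It was also higher in LBRKO EpiLCs (0.32). Its paralog Cdyl fell in QKO mES cells (-0.85 against WT and -0.56 against TKO). Lrif1, which encodes an HP1-binding factor, rose in QKO mES cells (1.09 against WT and 1.09 against TKO) and with the stage (1.10). Comparisons with TKO and QKO share the TKO parent line as well as the WT libraries.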

How the data were processed

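RNA-seq was analysed in 40 libraries of 8 groups, each group being 1 genotype at 1 stage as the labels give it. The authors deposited raw counts per gene. Per their methods and processing notes, reads were trimmed with cutadapt 2.5, aligned to GRCm39 with STAR 2.7.10a, sorted with SAMtools 1.10 and counted over GENCODE M30 genes with featureCounts 1.6.4. A second deposited table of counts, made with TEcount 2.2.3, also holds reads aligned to up to 100 places and served as an alternative. The strand setting is not given in the sources used here, although the library kit keeps strand. A table of transposable elements was not used.

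The deposited counts were fitted in edgeR 4.0.16 (R 4.3.3) with TMM scaling, a filter on low counts (filterByExpr), 1 mean per group and 1 quasi-likelihood fit over all 40 libraries. P-values were adjusted by the Benjamini-Hochberg method over 23399 genes for each of 14 comparisons, and a gene was called at an adjusted p under 0.05. Genes past 2-fold were counted apart. DESeq2 1.42.0 was an alternative. CPM used TMM-scaled library sizes, and CPM per kb the exon lengths in the table. Depth was 22.6M to 48.9M counts a library. Libraries of a group differed by more than counting noise (chi-square per degree of freedom 3.72 to 85.1), so none was counted as a duplicate. Of gene identifiers, 56017 of 56748 were found in GENCODE M39, used for promoters and biotypes; gene spans came from the deposited table. The script was tested on simulated counts.

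All 10 genes were named; wider-list genes were named where called past 2-fold or, with fewer than 3 of those, also where they had the 3 lowest adjusted p. The 10 genes, the lists and the tests were chosen with earlier results of these data known. In Cbx3 and Suv39h1, the chromosome medians and the antisense gene were described after their values were seen. All 40 gene-count columns were matched to a sample (0 not matched).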

Additional observations from a re-analysis of the deposited data

Results flagged for a closer look

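In 80 combinations of a gene and a group of 4 or 8 libraries, 5 had 1 library farther from the rest than Dixon's test allows, and chance flags about 1 in 20 such groups. They were Suv39h1 in TKO mES replicate 3 (14.73 CPM, the highest of its group), Setdb1 in QKO EpiLC replicate 1 (143.7 CPM, the lowest), Trim28 in QKO mES replicate 2 (2350 CPM, the highest), Cbx3 in LBRKO EpiLC replicate 4 (262.6 CPM, the highest) and Cbx5 in TKO EpiLC replicate 1 (764.6 CPM, the lowest). The 5 libraries were kept. Without them, Cbx3 in LBRKO EpiLCs gave 0.18 (edgeR adjusted p = 0.0543) and Trim28 in QKO mES cells 0.18 (edgeR adjusted p = 0.0504), each no longer past the threshold.

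The effect of a mutation differed between EpiLCs and mES cells, by the test of that difference on the log2 scale, for 7 genes in 10 cases. For Setdb1 it was -0.35 in LBRKO, -0.43 in TKO and -1.05 in QKO. For Ehmt1 it was -0.43 in LBRKO and -0.25 in QKO, for Suv39h1 -0.45 in LBRKO, for Ehmt2 -0.44 in QKO and for Atrx -0.56 in QKO. The difference was positive for Cbx1 (0.26) and Cbx3 (0.50), both in QKO. The Ehmt1 value in QKO did not pass with WT replicates 5 to 8 alone (-0.17, edgeR adjusted p = 0.117), with scaling to library totals (-0.14, edgeR adjusted p = 0.164) or without the filter on low counts (-0.13, edgeR adjusted p = 0.435).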

How the results depend on the processing

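Of 53 member differences that passed, no alternative reversed one. DESeq2 and the multimapped counts kept all 53, RLE scaling and a fit of the compared groups only 52 each, the replicate block 51, WT replicates 1 to 4 alone 49, WT replicates 5 to 8 alone 46, no filter 45 and scaling to library totals 44; the cause was not tested. Scaling to totals moved the median of all genes to 0.15 in QKO against WT and 0.12 in QKO against TKO EpiLCs (-0.01 in both before). Leaving out 1 library at a time kept 728 of 784.

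Counts of members that passed moved as follows. For LBR loss with and without lamins in mES cells (5), WT replicates 1 to 4 alone gave 2, library totals 3, no filter 1 and the replicate block 3; in EpiLCs (0), WT replicates 1 to 4 alone, multimapped counts and the block gave 1 each. LBRKO mES cells (1) gave 4 with WT replicates 1 to 4 alone and 3 with the block. TKO EpiLCs (1) gave 2 with DESeq2, RLE scaling, library totals and multimapped counts and 3 with WT replicates 5 to 8 alone. Past 2-fold, the count for the stage fell from 1 to 0 with multimapped counts, and that for stage by QKO from 1 to 0 with WT replicates 5 to 8 alone, library totals and no filter. Without 1 library, counts ran from 2 to 5 and 0 to 1 for LBR with lamins in mES cells and EpiLCs, 1 to 2 (LBRKO mES), 1 to 3 (TKO mES), 5 to 8 (QKO mES), 3 to 5 (LBRKO EpiLC), 0 to 2 (TKO EpiLC), 5 to 6 (QKO EpiLC), 4 to 6 and 3 to 4 (QKO against TKO, mES and EpiLC) and 6 to 7 (stage).

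Nothing in the labels pairs libraries by number, and in no comparison were all same-numbered pairs correlated over 0.1 in their deviations (17 of 40 in all, range -0.39 to 0.55), so the block was kept as an alternative. WT EpiLC and mES libraries came closest, with 7 of 8 pairs over 0.1 and 4 of 8 libraries correlating best with their own number, a hint from the data of shared numbers. QKO and TKO EpiLCs had 3 of 4. With the replicate block the members that passed numbered 7 for the stage (6 without) and 3 for QKO against TKO EpiLCs (3 without). The lowest count of any member was 347 reads (Suv39h1), so counting error limits Suv39h1 most.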
